A study of Mus musculus with 60 samples.

Results

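The proteasome set comprised the genes whose mouse symbol is Psma, Psmb, Psmc, Psmd, Psme, Psmf or Psmg followed by a number, with pseudogenes left out. Of the 18088 genes in the deposited table, 48 met this definition, and all 48 passed the filter on low values. The members were taken by name and not by their own values, though earlier results of these data were known when the set was chosen. They comprised 19 genes of the core particle, 20 genes of the regulatory particle and 9 genes for activators, an inhibitor and assembly factors of the core.

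The proteasome degrades proteins that carry ubiquitin chains, and in neurons it also takes part in the turnover of synaptic proteins. Its core is a barrel of stacked rings, in which the alpha subunits (Psma genes) form the gate and the beta subunits (Psmb genes) hold the proteolytic sites. The regulatory particle caps the barrel: its ATPases (Psmc genes) unfold the substrate and thread it into the core, and its non-ATPase subunits (Psmd genes) bind ubiquitin chains, remove them and hold the cap together.

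Heterozygous Chd8+/N2373K mice (Het), which carry a point mutation in 1 copy of the chromatin remodeller gene Chd8, were set beside wild-type mice (WT), all C57BL/6J. Het and WT pups received fluoxetine (which blocks serotonin reuptake), lithium (used to stabilize mood) or vehicle through the milk of a treated mother, from postnatal day 3 to 24, and the prefrontal cortex was taken on day 25. Each of the 12 groups of genotype, drug and sex held 5 libraries, 60 in all, made with a stranded mRNA kit. The labels did not tie pups to litters. Pups of 1 group may therefore share a mother, and a p-value here measures the spread of these samples alone, which may be partly technical.

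The deposited values are reads per gene divided by a size factor for each library, called normalized reads here, and each library held between 24052509 and 31647416 reads. Chd8 averaged 2671 ± 134 normalized reads in Het libraries and 3094 ± 91.7 in WT libraries (SD, n = 30 each). All 8 markers of cortical excitatory neurons were detected, with a summed level between 115229 and 205753 normalized reads. The summed level of 8 olfactory bulb markers ran between 2616 and 34952 normalized reads. Whether the amount of neighbouring tissue differed between libraries was not tested. A score over the olfactory bulb markers, their mean log2 deviation from the average library, was above 1 in 16 of the 60 libraries, and the fluoxetine counts with member calls are also given without these 16. Other marker sums also varied: choroid plexus 55.9 to 15119, oligodendrocyte 32115 to 216327 and striatum 2488 to 15547 normalized reads. No fit left out libraries by those other lists.

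The 31 subunits of the standard proteasome in this set were all abundant. Subunits with other kinds of symbol lay outside the set. Their mean levels, in normalized reads per kilobase of the principal transcript, lay between 594 for Psmd11, a scaffold subunit of the cap, and 2457 for Psmc5, an ATPase, a 4.13-fold range. The core subunits had a median level of 1655 per kilobase and the regulatory subunits 1306 per kilobase. After Psmc5, the highest levels were 2249 per kilobase for Psmb7, which holds the trypsin-like site, 2108 for Psmb6, which holds the caspase-like site, and 2103 for Psma7, an alpha ring subunit. Across the 60 libraries the coefficient of variation was between 5.69 and 11.4% for core subunits (median 8.57%) and between 4.58 and 7.91% for regulatory subunits (median 6.21%). Reads of all 48 members made up between 0.241 and 0.322% of a library.

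Most members with specialised roles were less abundant, with Psme3 and Psme1 as the exceptions. The activator subunits Psme3, Psme1, Psme4 and Psme2 averaged 1071, 619, 322 and 294 normalized reads per kilobase in that order, and Psmf1, which encodes the inhibitor PI31, averaged 249. The core assembly chaperones Psmg2, Psmg3, Psmg1 and Psmg4 averaged 282, 233, 181 and 136 per kilobase. The chaperones Psmd5, Psmd9 and Psmd10, which help to assemble the ATPase ring, averaged 281, 255 and 199 per kilobase. The inducible catalytic subunits were at 374 per kilobase for Psmb10, 34.2 for Psmb8 and 15.3 for Psmb9. Psma8, known from the testis, averaged 5.07 per kilobase and Psmb11, known from the thymus, 1.05 per kilobase, and Psmb11 had no read in 6 libraries.

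**Figure D1:**
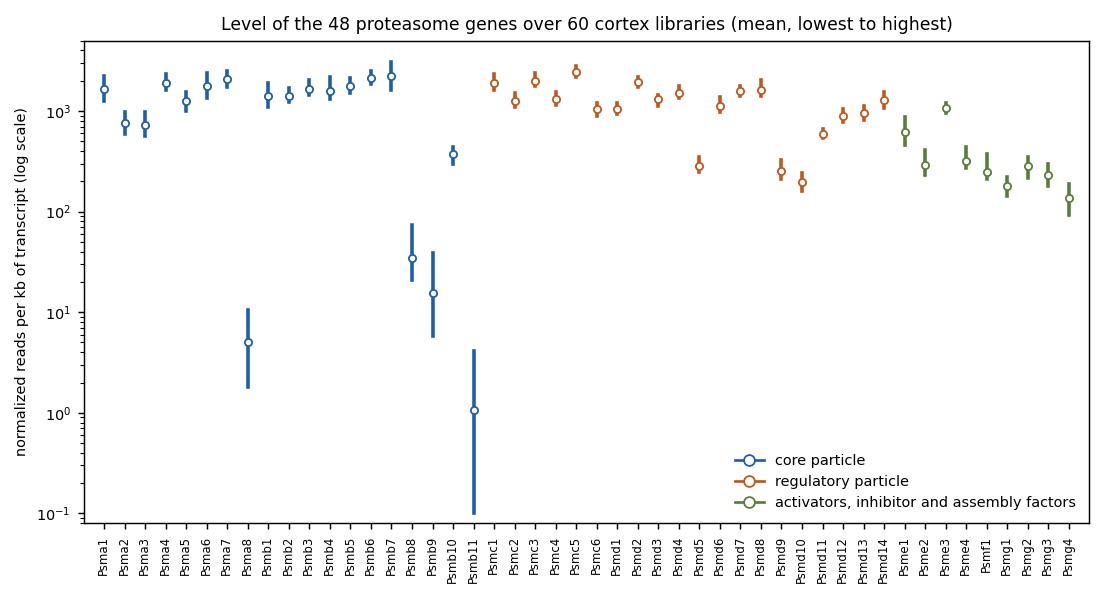
Level of each member in normalized reads per kilobase (log axis), with the mean as a point and the lowest and highest of 60 libraries as a line. The 31 standard subunits lie between 594 and 2457 per kilobase, and Psmb8, Psmb9, Psma8 and Psmb11 lie far below them.

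Fluoxetine was accompanied by higher levels of many standard subunits in Het males. Against vehicle, 19 of 48 members rose and 0 fell (limma on log2(value + 1), Benjamini-Hochberg adjusted p under 0.05). The median log2 fold change was 0.13 over the members, 0.14 over the core and 0.15 over the regulatory particle, beside -0.0005 over all 17807 genes tested, and 41 of 48 estimates were above 0. Of all genes tested, 12% were called higher and 22.7% were called in either direction, and of genes averaging at least 500 normalized reads 19.2% were called higher. The members' share of higher calls, 19 of 48, lies above both backgrounds.

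In the core particle of Het males 6 of 19 genes rose under fluoxetine. They were Psma6 (0.31), Psmb1 (0.31), Psma2 (0.24), Psmb7 (0.23), Psmb5 (0.20) and Psmb2 (0.16), with log2 fold changes in parentheses. Psmb5 and Psmb7 carry the chymotrypsin-like and trypsin-like sites, Psmb1 and Psmb2 are non-catalytic beta ring subunits, and Psma6 and Psma2 belong to the alpha ring. Psma2 overlaps the gene AW209491 on the same strand over 8943 bases, so its value is uncertain. By ring, 2 of 8 alpha genes and 4 of 7 standard beta genes were called.

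In the regulatory particle of Het males 11 of 20 genes rose. Of the 6 ATPases, Psmc1 (0.20), Psmc2 (0.18), Psmc5 (0.15) and Psmc6 (0.15) were called. Of the 11 non-ATPase subunits, Psmd6 (0.24), Psmd13 (0.23), Psmd12 (0.18), Psmd14 (0.18), Psmd1 (0.18) and Psmd2 (0.16) were called. Psmd14 is the deubiquitinase of the cap, Psmd1 and Psmd2 are its large scaffold subunits that dock ubiquitin receptors, and Psmd6, Psmd12 and Psmd13 are subunits of the lid. Psmd5 (0.19), an assembly chaperone, was the 1 called gene of the 3 chaperones in the cap. Outside both particles the inhibitor gene Psmf1 (0.38) and the activator gene Psme3 (0.18) rose. Of the 31 standard subunits 16 were called and all 31 estimates lay above 0, whereas 3 of the other 17 members were called. These estimates come from the same libraries and are not independent.

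Psmf1 had the smallest adjusted p among members in Het males. Psmf1 measured 1052, 1002, 1425, 1181 and 951 normalized reads in the 5 Het fluoxetine males and 863, 840, 858, 809 and 900 in the 5 Het vehicle males, so the groups did not overlap. The log2 fold change was 0.38 ± 0.07 (SE; limma, adjusted p = 0.000289). In females Psmf1 averaged 999 ± 53.7 normalized reads in Het fluoxetine pups and 955 ± 39.3 in Het vehicle pups (SD, n = 5 each), and it was not called there (0.06, limma, adjusted p = 0.598).

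Psmd13 measured 2009, 2010, 2213, 2138 and 2068 normalized reads in Het fluoxetine males and 1602, 1696, 2076, 1698 and 1869 in Het vehicle males. Vehicle male 3, at 2076, stood above 3 of the fluoxetine males, and the other 4 vehicle males stood below all of them. Psmd13 rose by 0.23 ± 0.05 on the log2 scale (SE; limma, adjusted p = 0.00177). Psmd13 overlaps Gm15542 on the same strand and Sirt3 on the other, and whether the counting used strand is not given in the sources used here.

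The Het male calls depended on which libraries and which estimate of the spread entered. With only the 2 groups in the fit, 0 of the 48 members were called, as were 269 of all genes higher and 339 lower, against 4037 of all genes with all 60 libraries; without the 16 libraries with olfactory bulb scores above 1, which leaves 3 Het fluoxetine and 2 Het vehicle males, only Psmf1 was called, and all 19 estimates kept their sign. The Het vehicle males left in that fit were replicates 3 and 5. Replicate 3 had the highest summed core reads of the Het vehicle males, 31047, with the next at 25596. The part of this library and of the olfactory bulb scores in the lower count was not tested. The median log2 fold change in that fit was 0.057 over the core and 0.074 over the regulatory particle, against 0.14 and 0.15 with all libraries. Without Het vehicle male 3, 29 members were called, and with every library rescaled to the same total 7 rose. That rescaling gave 1108 of all genes higher and 2801 lower, against 2134 higher and 1903 lower in the values as deposited.

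In Het females 12 members rose under fluoxetine and 1 fell. Of all genes 7.08% were called higher and 8.04% lower, and of genes averaging at least 500 normalized reads 11.3% were called higher. The median log2 fold change was 0.11 over the members, 0.14 over the core and 0.11 over the regulatory particle, beside 0.009 over all genes, and 42 of 48 estimates were above 0. In the core Psmb7 (0.35), Psma6 (0.34), Psmb1 (0.32), Psma1 (0.26), Psmb4 (0.20) and Psmb5 (0.17) rose, and in the regulatory particle Psmd14 (0.23), Psmc1 (0.18), Psmd5 (0.18), Psmd6 (0.16), Psmc6 (0.15) and Psmd1 (0.12) rose. Psmb8, an inducible catalytic subunit described further on, fell by 0.57 on the log2 scale.

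Psmb7 had the smallest adjusted p in Het females. It measured 2744, 3569, 2823, 2846 and 2743 normalized reads in Het fluoxetine females and 2262, 2552, 1893, 2354 and 2529 in Het vehicle females, with no overlap. Fluoxetine female 2 stood high, at 3569, and vehicle female 3 low, at 1893. On the log2 scale Psmb7 rose by 0.35 ± 0.07 (SE; limma, adjusted p = 0.00107). In males Psmb7 measured 2647, 2641, 3379, 3056 and 2778 in Het fluoxetine pups and 2237, 2300, 3253, 2330 and 2289 in Het vehicle pups, where vehicle male 3 lay above 4 fluoxetine males (0.23 ± 0.07, SE; limma, adjusted p = 0.0179). Psmb7 overlaps Nek6 on the opposite strand.

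The beta ring gene Psmb1 behaved alike in its libraries. Its SD was 484 normalized reads in Het vehicle males and 264 in Het fluoxetine males. In WT males the SD was 76.2 under vehicle and 118 under fluoxetine. The SEs come from 1 spread shared by all 12 groups, and the unequal spread between groups was not modelled. Psmb1 measured 2597, 3367, 2720, 2743 and 2617 normalized reads in Het fluoxetine females and 2254, 2533, 1979, 2186 and 2315 in Het vehicle females, with no overlap (0.32 ± 0.08, SE; limma, adjusted p = 0.0060). In males it measured 2515, 2761, 3195, 2923 and 2645 in Het fluoxetine pups and 1994, 2115, 3124, 1937 and 2287 in Het vehicle pups, and here too vehicle male 3 was far above the other vehicle males (0.31 ± 0.08, SE; limma, adjusted p = 0.00456). Psmb5, which holds the chymotrypsin-like site, measured 1721, 1936, 1704, 1654 and 1671 in Het fluoxetine females and 1582, 1546, 1429, 1512 and 1625 in Het vehicle females, again with no overlap (limma, adjusted p = 0.0212).

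The deubiquitinase gene Psmd14 measured 2009, 2267, 2208, 2074 and 2180 normalized reads in Het fluoxetine females and 1803, 1916, 1663, 1726 and 2039 in Het vehicle females. The ranges overlapped through vehicle female 5, at 2039, and fluoxetine female 1, at 2009. Psmd14 rose by 0.23 ± 0.06 on the log2 scale (SE; limma, adjusted p = 0.00517). Psma6, Psmb1, Psmb7 and Psmd14 kept their calls in Het females whichever 1 library was left out.

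The count in Het females rested on single libraries. It was 4 without fluoxetine female 2 or without vehicle female 3, 5 without vehicle female 4, 7 without fluoxetine female 3 and 8 without vehicle female 1; with only the 2 groups in the fit it was 3. Without the 16 libraries with high olfactory bulb scores 10 members rose and 0 fell, 8 of them among the 13 called with all libraries; Psma1, Psmb4, Psmb5, Psmb8 and Psmd1 lost their calls and Psma2 and Psmd11 gained one. Of the members called in either sex of Het pups, 10 were called in both, which is 52.6% of the male list and 76.9% of the female list: Psma6, Psmb1, Psmb5, Psmb7, Psmc1, Psmc6, Psmd1, Psmd5, Psmd6 and Psmd14. The same overlap over all genes is not given here. The test of the difference between the sexes in Het pups called 0 members, beside 0.0112% of all genes (limma). At an unadjusted p under 0.05, 3 were higher and 1 lower in males, and the share of all genes at that threshold is not given.

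**Figure D2:**
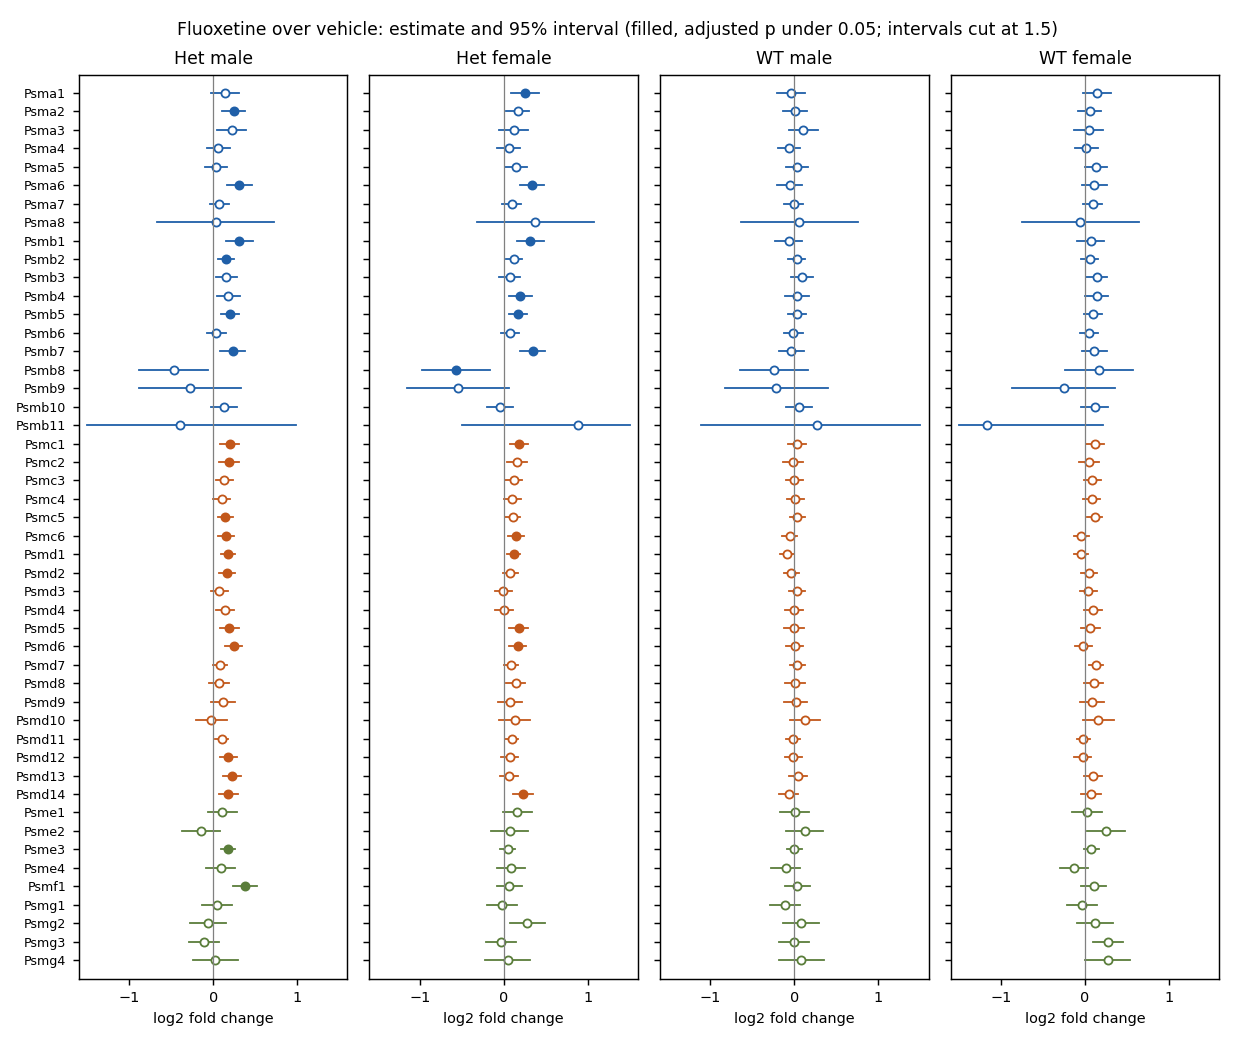
Log2 fold change of each member, fluoxetine against vehicle, in Het males, Het females, WT males and WT females, with 95% confidence intervals cut at 1.5 and filled points for adjusted p under 0.05 (limma). Filled points stand on the right of 0 in both Het panels, with Psmb8 in Het females as the exception, and neither WT panel has one.

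In WT pups no member was called under fluoxetine in either sex. The shares of all genes given here are at the adjusted threshold and are no background for the unadjusted counts. In WT males 1.34% of all genes were called in either direction and 0.247% higher, and the members' median log2 fold change was 0.002 with 26 of 48 estimates above 0. At an unadjusted p under 0.05, 0 members were higher and 1 was lower in WT males, and edgeR called 0. Over all genes the median was 0.004 in either sex of WT pups. In WT females 2.5% of all genes were called, 0.607% higher, the members' median was 0.08 and 38 of 48 estimates were above 0. There 8 members were higher and 0 lower at an unadjusted p under 0.05, and edgeR called 0.

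Summed over the 14 standard core subunits, normalized reads had a median of 29023 in Het fluoxetine males (26618 to 31789) and 24600 in Het vehicle males (23432 to 31047). The summed core reads had a median of 27364 in Het fluoxetine females (26984 to 32543) and 24866 in Het vehicle females (22236 to 26857). The highest vehicle value in males was replicate 3, and leaving that library aside the summed core levels of fluoxetine and vehicle males did not overlap. In WT males the median was 25609 under fluoxetine and 26051 under vehicle, and in WT females it was 26694 under fluoxetine and 24851 under vehicle.

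The 17 standard regulatory subunits had a summed median of 46393 normalized reads in Het fluoxetine males (45131 to 49284) and 41669 in Het vehicle males (39968 to 47853). In females the summed median was 44657 in Het fluoxetine pups (43647 to 48973) and 41668 in Het vehicle pups (39778 to 45082). In WT males it was 43470 under fluoxetine and 43290 under vehicle, and in WT females 42823 under fluoxetine and 42024 under vehicle. In both particles the Het fluoxetine medians were the highest of the fluoxetine and vehicle groups. In the regulatory particle the Het vehicle medians were the lowest, and in the core those of Het vehicle males, WT vehicle females and Het vehicle females lay close together.

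The comparison of Het with WT under the same drug asked whether the genotype mattered at a given treatment. In fluoxetine males 6 of 48 members were higher in Het than in WT pups and 0 were lower, beside 0.539% of all genes and 1.06% of genes averaging at least 500 normalized reads called higher, and 1.18% of all genes in either direction. The median log2 fold change of the members was 0.13, beside -1.4e-05 over all genes, and 41 of 48 estimates were above 0. The 6 were Psmd1, Psmd6, Psma6, Psmc6, Psmd12 and Psma1. Psmd1, Psmd6, Psma6 and Psmc6 were also called against vehicle in both sexes of Het pups, with the same Het fluoxetine males in 2 of those 3 contrasts, and no other member was called in 3 of the 14 comparisons.

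Psmd1, whose gene lies at chr1:86064387-86139151 on the plus strand (GRCm38), encodes the largest scaffold subunit of the cap. It measured 3564, 3699, 3747, 3555 and 3742 normalized reads in Het fluoxetine males, against 3072, 3257, 2907, 3089 and 3309 in WT fluoxetine males and 3071, 3204, 3526, 3221 and 3183 in Het vehicle males. The Het fluoxetine males lay above every library of both other groups, the closest being Het vehicle male 3, at 3526. The fold change was 0.23 ± 0.04 against WT fluoxetine males (SE; limma, adjusted p = 0.0015) and 0.18 ± 0.04 against Het vehicle males (SE; limma, adjusted p = 0.00137).

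In females Psmd1 measured 3392, 3519, 3564, 3252 and 3582 normalized reads in Het fluoxetine pups and 3035, 3278, 3020, 3102 and 3535 in Het vehicle pups. The ranges overlapped through vehicle female 5, and the fold change was 0.12 ± 0.04 (SE; limma, adjusted p = 0.0376). In WT pups Psmd1 averaged 3127 ± 160 in fluoxetine males and 3315 ± 105 in vehicle males, and 3213 ± 193 in fluoxetine females and 3315 ± 110 in vehicle females (SD, n = 5 each). Psmd1 was thus not called in WT pups, where both estimates lay below 0 (-0.09 in males and -0.05 in females). It overlaps Gm21972 and Gm37914 on the same strand, which averaged 5.92 and 13.6 normalized reads.

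Psmd6, a lid subunit gene at chr14:14112174-14120984 on the minus strand (GRCm38), measured 1771, 1689, 1902, 1882 and 1710 normalized reads in Het fluoxetine males. It measured 1419, 1588, 1435, 1523 and 1544 in WT fluoxetine males and 1525, 1433, 1671, 1462 and 1468 in Het vehicle males. Again the Het fluoxetine males stood above every library of both other groups, with Het vehicle male 3 the closest, at 1671. The fold change was 0.25 ± 0.05 against WT fluoxetine males (SE; limma, adjusted p = 0.00576) and 0.24 ± 0.05 against Het vehicle males (SE; limma, adjusted p = 0.000668).

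In females Psmd6 measured 1554, 1824, 1690, 1537 and 1759 normalized reads in Het fluoxetine pups and 1458, 1506, 1414, 1367 and 1731 in Het vehicle pups, which overlapped (0.16 ± 0.05, SE; limma, adjusted p = 0.0247). In WT pups Psmd6 averaged 1502 ± 72.6 in fluoxetine males and 1502 ± 102 in vehicle males, and 1496 ± 79.7 in fluoxetine females and 1515 ± 65.9 in vehicle females (SD, n = 5 each). The WT means of Psmd6 thus differed by less than the spread between replicates.

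Psma6, an alpha ring gene at chr12:55384222-55418454 on the plus strand (GRCm38), measured 1742, 2387, 2484, 2204 and 2174 normalized reads in Het fluoxetine males. It measured 1583, 1769, 1686, 1813 and 1843 in WT fluoxetine males and 1599, 1654, 2056, 1673 and 1840 in Het vehicle males. Of the Het fluoxetine males, 4 stood above both other groups and replicate 1, at 1742, stood within them. The fold change was 0.33 ± 0.07 against WT fluoxetine males (SE; limma, adjusted p = 0.0125) and 0.31 ± 0.07 against Het vehicle males (SE; limma, adjusted p = 0.0019).

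In females Psma6 measured 2112, 2191, 2360, 1991 and 2096 normalized reads in Het fluoxetine pups and 1757, 1828, 1411, 1553 and 2013 in Het vehicle pups. The ranges overlapped only through vehicle female 5, at 2013, and fluoxetine female 4, at 1991 (0.34 ± 0.07, SE; limma, adjusted p = 0.00137). WT means of Psma6 were 1739 ± 105 in fluoxetine males and 1804 ± 34.1 in vehicle males, and 1839 ± 62.9 in fluoxetine females and 1702 ± 87.3 in vehicle females (SD, n = 5 each).

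Psmc6, an ATPase gene at chr14:45329788-45349705 on the plus strand (GRCm38), measured 2460, 2638, 2655, 2547 and 2584 normalized reads in Het fluoxetine males. It measured 2184, 2463, 2166, 2287 and 2252 in WT fluoxetine males and 2309, 2221, 2546, 2238 and 2280 in Het vehicle males. The fluoxetine and vehicle ranges overlapped through Het vehicle male 3, and the Het and WT ranges met at 2460 and 2463. The fold change was 0.18 ± 0.05 against WT fluoxetine males (SE; limma, adjusted p = 0.0278) and 0.15 ± 0.05 against Het vehicle males (SE; limma, adjusted p = 0.0124).

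In females Psmc6 measured 2308, 2543, 2589, 2508 and 2389 normalized reads in Het fluoxetine pups and 2298, 2344, 2142, 1982 and 2408 in Het vehicle pups, with overlap (0.15 ± 0.05, SE; limma, adjusted p = 0.0248). WT means of Psmc6 were 2270 ± 118 in fluoxetine males and 2359 ± 97 in vehicle males, and 2250 ± 125 in fluoxetine females and 2320 ± 99.4 in vehicle females (SD, n = 5 each). Psmc6 and Psmd6 share chromosome 14 with Chd8, at distances of 6.848 and 38.08 Mb. Other members there lie nearer to Chd8: Psmb5 at 2.356, Psmb11 at 2.364, Psme1 at 3.32 and Psme2 at 3.33 Mb.

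**Figure D3:**
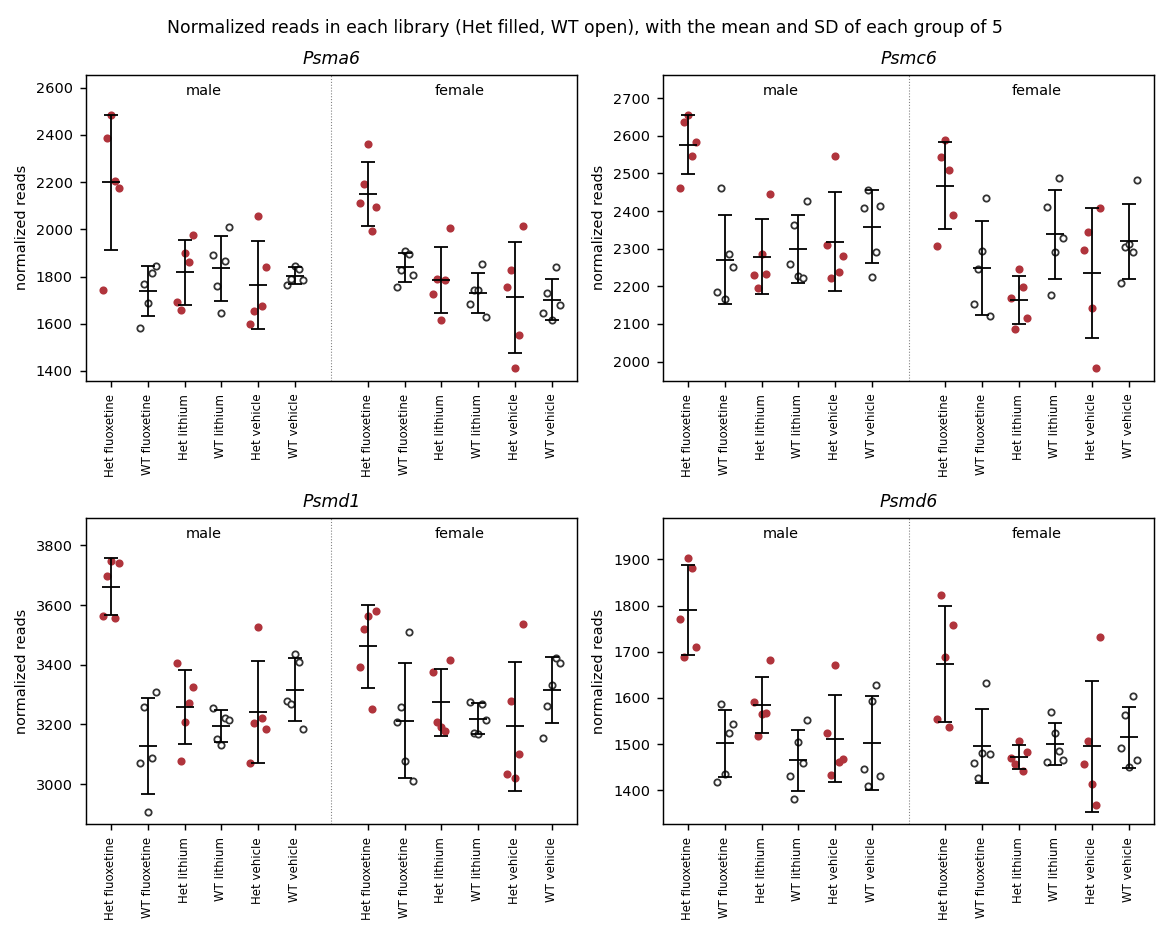
Normalized reads of Psma6, Psmc6, Psmd1 and Psmd6 in each library of the 12 groups (Het filled, WT open), with bars for the mean and SD of 5. In Psmd1 and Psmd6 the Het fluoxetine males lie above all libraries of Het vehicle and WT fluoxetine males.

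Of the remaining members that were higher in Het than WT fluoxetine males, the lid gene Psmd12 measured 1820, 1890, 2001, 1809 and 1941 normalized reads in Het pups and 1540, 1711, 1555, 1706 and 1784 in WT pups. The groups did not overlap (0.19 ± 0.05, SE; limma, adjusted p = 0.0429). The alpha ring gene Psma1 measured 2028, 2217, 2688, 2117 and 2343 in Het pups and 1829, 2102, 1527, 1861 and 1910 in WT pups, which overlapped, and its adjusted p lay at the threshold (0.30 ± 0.08, SE; limma, adjusted p = 0.0495; edgeR, adjusted p = 0.0556). Psmd1 and Psmd6 kept their calls whichever 1 library was left out.

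The other 4 calls were lost without certain libraries. Psma6 lost its call without Het fluoxetine male 3 or WT fluoxetine male 1, Psmc6 also without Het male 5 and WT males 3 and 4, and Psma1 and Psmd12 without any of Het males 2, 3 and 5 and WT males 1, 3 and 4. The count of 6 was 2 without Het fluoxetine male 3 or WT fluoxetine male 1, 3 without Het male 5, WT male 3 or WT male 4, 10 without Het male 1 and 12 without WT male 5. With only the 2 groups in the fit it was 0, beside 1 of all genes, and with quantile normalization or equal totals it was 3. Without the 16 libraries with high olfactory bulb scores, which leaves 3 Het and 5 WT fluoxetine males, the count was 5, of which Psmd1 and Psmd6 were among the 6; Psma6, Psmc6, Psmd12 and Psma1 were not called there, and Psmb1, Psmb7 and Psmf1 were.

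In females under fluoxetine 0 members were called between Het and WT pups, beside 0.0393% of all genes; 9 were higher and 0 lower at an unadjusted p under 0.05, and edgeR called 0. Psma6 had the estimate 0.22, Psmd6 0.16, Psmc6 0.13 and Psmd1 0.11 there. Under lithium 0 members were called in males, beside 0.00562% of all genes (unadjusted, 1 higher and 0 lower), and 0 in females, beside 0.0168% (unadjusted, 0 higher and 2 lower). Under vehicle 0 members were called in males, beside 0.0168% of all genes (unadjusted, 0 higher and 1 lower), and 0 in females, beside 0.0225% (unadjusted, 4 higher and 1 lower). With edgeR 0 members were called in all 4 of these. The unadjusted counts have no share of all genes at the same threshold beside them.

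Whether the response to fluoxetine differed between genotypes was tested by the interaction. In males Psmd1 was the 1 member called (difference of log2 fold changes, Het minus WT, 0.26 ± 0.06, SE; limma, adjusted p = 0.0202), beside 0.927% of all genes in either direction and 0.337% higher. It lost this call without Het fluoxetine male 3 (limma, adjusted p = 0.0517), Het vehicle male 1 (0.0613) or WT fluoxetine male 3 (0.0577), and without the 16 libraries with high olfactory bulb scores (limma, 0.20, adjusted p = 0.506). In females 0 members were called, beside 0 of all genes. At an unadjusted p under 0.05, 7 members were higher and 2 lower, and the share of all genes at that threshold is not given.

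Averaged over the sexes, 5 members had a called interaction, all higher in Het: Psmb1 (0.32 ± 0.08, SE; limma, adjusted p = 0.0346), Psma6 (0.30 ± 0.07, 0.0313), Psmd1 (0.21 ± 0.04, 0.0172), Psmd6 (0.21 ± 0.05, 0.0291) and Psmc6 (0.20 ± 0.05, 0.026). Of all genes 0.724% were called higher and 1.70% in either direction. Only Psmd1 kept its call whichever 1 library was left out, and 0 of the 5 were called without the 16 libraries with high olfactory bulb scores, where their estimates lay between 0.17 and 0.24. With the sexes averaged, 28 members rose and 1 fell under fluoxetine in Het pups (16.9% of all genes higher, 16% lower), 0 were called in WT pups (8.2% of all genes in either direction), and 12 were higher in Het than WT fluoxetine pups (3.45% higher). Between Het and WT pups, averaged over sexes, 0 were called under lithium (0.0393% of all genes) and 0 under vehicle (0.0562%), and edgeR called 0 in both. At an unadjusted p under 0.05, 3 were higher and 0 lower under lithium, and 2 higher and 1 lower under vehicle. The share of all genes at that threshold is not given.

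The promoters of the 4 members called in 3 comparisons are shown because the comparisons turn on these genes, and that of Psmd12 because it alone among the called members with an entry held the antioxidant response element, which Nrf1 and related factors are known to bind in proteasome genes. Each line gives the 250 bases before a start site from the RefSeq promoter table of GRCm38.p6, in the gene's own direction. Capitals mark a match to either of the motifs searched, on either strand: TGAC followed by any 3 bases and GCA, the antioxidant response element, or CCAAT. The windows are chr12:55398575-55398824 (plus) for Psma6, chr14:45329574-45329823 (plus) for Psmc6, chr1:86064369-86064618 (plus) for Psmd1, chr14:14120946-14121195 (minus) for Psmd6 and chr11:107479278-107479527 (plus) for Psmd12.
Psma6: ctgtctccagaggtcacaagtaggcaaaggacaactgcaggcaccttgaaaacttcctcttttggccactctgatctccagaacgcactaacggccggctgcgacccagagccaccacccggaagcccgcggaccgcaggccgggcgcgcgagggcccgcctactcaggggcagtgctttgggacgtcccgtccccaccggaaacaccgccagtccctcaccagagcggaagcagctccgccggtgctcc
Psmc6: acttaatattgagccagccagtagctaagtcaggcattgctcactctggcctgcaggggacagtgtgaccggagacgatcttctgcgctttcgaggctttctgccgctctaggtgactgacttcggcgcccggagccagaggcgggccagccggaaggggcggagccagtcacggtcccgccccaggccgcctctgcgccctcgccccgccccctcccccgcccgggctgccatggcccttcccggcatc
Psmd1: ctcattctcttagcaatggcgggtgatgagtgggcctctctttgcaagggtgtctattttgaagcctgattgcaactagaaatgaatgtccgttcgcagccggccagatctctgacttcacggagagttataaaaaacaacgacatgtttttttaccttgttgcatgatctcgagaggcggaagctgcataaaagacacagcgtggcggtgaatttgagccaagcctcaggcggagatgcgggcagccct
Psmd6: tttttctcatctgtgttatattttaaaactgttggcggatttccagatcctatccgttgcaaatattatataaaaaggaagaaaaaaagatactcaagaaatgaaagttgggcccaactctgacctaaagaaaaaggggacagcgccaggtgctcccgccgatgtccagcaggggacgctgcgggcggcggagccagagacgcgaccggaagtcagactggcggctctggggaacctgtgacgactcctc
Psmd12: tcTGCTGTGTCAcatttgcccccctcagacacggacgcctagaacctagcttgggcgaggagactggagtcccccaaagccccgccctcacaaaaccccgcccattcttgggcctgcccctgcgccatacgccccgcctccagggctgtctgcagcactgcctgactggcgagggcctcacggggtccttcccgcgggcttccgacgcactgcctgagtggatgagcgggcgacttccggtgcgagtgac
The match in Psmd12 stands on the minus strand, and it overlaps no other match. Over the window of 250 bases before to 50 after the start, the antioxidant response element occurred in 2 of the 40 members with an entry (5%, Psmd12 and Psme4) and in 3.449% of 27025 genes. The letters CCAAT, also searched on both strands, occurred in 14 of the 40 members (35%) and in 41.06% of genes. Psma6 has 2 promoters in the table, and the one printed is where most of its listed transcripts start. A match is a description of letters and shows no binding.

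Lithium gave no member call in any of the 4 sex-specific contrasts with vehicle. The members' median log2 fold change was 0.07 in Het males, 0.07 in Het females, 0.03 in WT males and 0.05 in WT females. Of all genes, in either direction, 2% were called in Het males, 0.629% in Het females, 0.0786% in WT males and 0.118% in WT females. These shares are at the adjusted threshold and are no background for the unadjusted counts that follow. At an unadjusted p under 0.05, 9 members were higher and 1 lower in Het males, 6 were higher and 0 lower in Het females, 0 were higher and 1 lower in WT males, and 5 were higher and 0 lower in WT females; edgeR called 0 in each. Without Het vehicle male 3, 9 members were called in Het males, and without the 16 libraries with high olfactory bulb scores 3 were called in Het females. In that fit the medians in Het males lay below 0, at -0.071 over the core and -0.014 over the regulatory particle. Only replicates 3 and 5 of the Het vehicle males are left in it. The shares of all genes called in these smaller fits are not given here.

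With the sexes averaged, 4 members were higher under lithium in Het pups, beside 5.3% of all genes called higher. These were Psmb7 (0.21 ± 0.05, SE; limma, adjusted p = 0.00755), the beta ring gene Psmb3 (0.17 ± 0.04, 0.012), Psmb5 (0.11 ± 0.04, 0.0449) and the ATPase gene Psmc4 (0.11 ± 0.04, 0.0453). Psmb7 averaged 2796 ± 132 normalized reads in Het lithium males and 2482 ± 432 in Het vehicle males, and 2713 ± 78.8 in Het lithium females and 2318 ± 267 in Het vehicle females (SD, n = 5 each). In WT pups 0 members were called with the sexes averaged, beside 2.97% of all genes (unadjusted, 10 higher and 1 lower; edgeR, 0), and the WT estimates of these 4 genes lay between 0.07 and 0.11. A share of 4 of 48 members is close to the background. The count was 0 without the 16 libraries with high olfactory bulb scores and lay between 2 and 15 when 1 library was left out. It was 15 without Het vehicle male 3, 7 without Het vehicle female 2, and 2 without any of Het lithium males 3, 4 and 5, Het lithium females 1, 2 and 5, Het vehicle males 1, 2 and 4 and Het vehicle females 3 and 4. In the same contrast 4 of 5 erythrocyte markers rose (median 0.77), and the part of this in the result was not tested. Fluoxetine and lithium contrasts share their vehicle libraries.

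**Figure D4:**
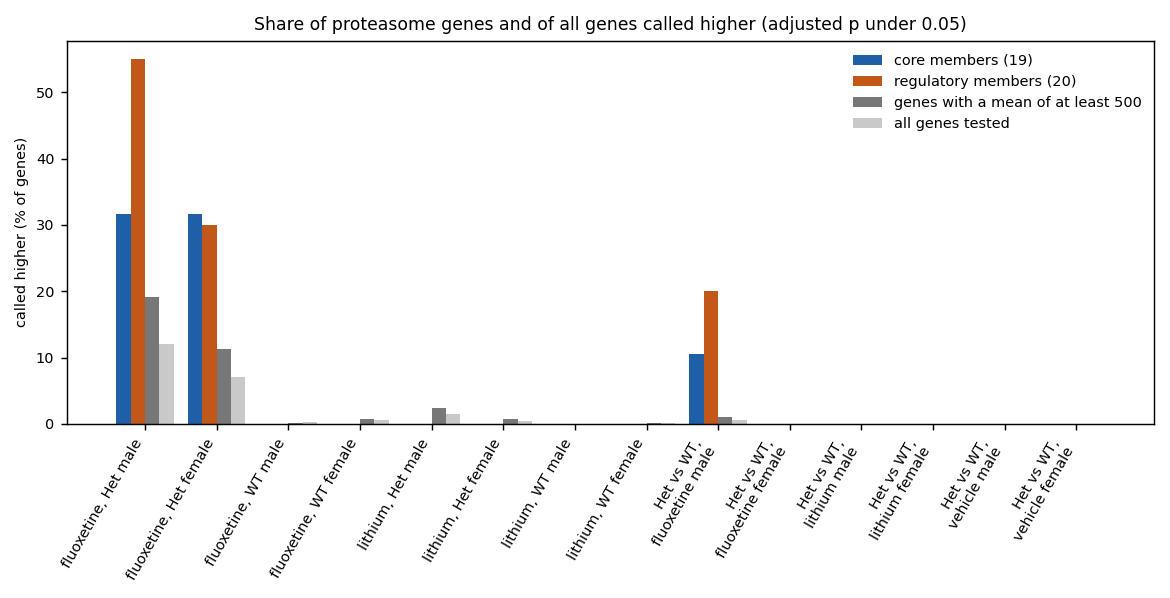
Percent of genes called higher in each of the 14 sex-specific comparisons, for core members, regulatory particle members, genes averaging at least 500 normalized reads and all genes tested (limma, adjusted p under 0.05). Members were called in fluoxetine against vehicle in both sexes of Het pups and in Het against WT fluoxetine males, and in none of the other 11 comparisons.

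The inducible catalytic subunits take the place of standard ones in the immunoproteasome: Psmb8 that of Psmb5, Psmb9 that of Psmb6 and Psmb10 that of Psmb7. Of the reads per kilobase of these 6 genes, the 3 inducible ones made up between 5.41 and 8.41% (median 6.40%), nearly all of it Psmb10, and Psmb8 and Psmb9 together between 0.448 and 1.80%. The inducible share averaged 6.05 ± 0.75% in Het fluoxetine males and 6.42 ± 0.47% in Het vehicle males, and 5.95 ± 0.18% in Het fluoxetine females and 7.34 ± 0.89% in Het vehicle females (SD, n = 5 each). It averaged 6.54 ± 0.33% in WT fluoxetine males and 6.49 ± 1.04% in WT vehicle males, and 6.42 ± 0.53% in WT fluoxetine females and 6.34 ± 0.39% in WT vehicle females (SD, n = 5 each).

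Psmb8 was the 1 member lower under fluoxetine. It measured 48.9, 51.3, 34.2, 54.0 and 49.9 normalized reads in Het fluoxetine females and 66.0, 49.8, 78.0, 69.3 and 97.6 in Het vehicle females. Vehicle female 2, at 49.8, lay among the fluoxetine females, and the other 4 vehicle females lay above them all. The fold change was -0.57 ± 0.20 (SE; limma, adjusted p = 0.0476). The call was lost without any of fluoxetine females 1, 2, 3 and 5 and vehicle females 1, 3, 4 and 5, and with the replicate number as a block (limma, adjusted p = 0.0533). It was also lost with quantile normalization (limma, adjusted p = 0.0552), with only the groups compared (0.0934) and without the 16 libraries with high olfactory bulb scores (-0.44, 0.288).

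In males Psmb8 measured 64.1, 34.6, 40.7, 54.1 and 49.4 normalized reads in Het fluoxetine pups and 56.6, 65.8, 67.9, 79.7 and 63.0 in Het vehicle pups. These ranges overlapped through fluoxetine male 1, and the member was not called (-0.47 ± 0.20, SE; limma, adjusted p = 0.0862). With the sexes averaged Psmb8 fell by 0.52 on the log2 scale in Het pups (SE 0.14; limma, adjusted p = 0.00402). In WT pups Psmb8 averaged 52.2 ± 10.1 in fluoxetine males and 65.2 ± 30.2 in vehicle males, and 56.4 ± 8.29 in fluoxetine females and 50.7 ± 12.1 in vehicle females (SD, n = 5 each).

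Psmb9 averaged 19.6 ± 3.33 normalized reads in Het fluoxetine females and 29.5 ± 6.64 in Het vehicle females (SD, n = 5 each; -0.55, limma, adjusted p = 0.22), and it was not called in any comparison. Psmb10 averaged 494 ± 64.1 in Het fluoxetine males and 452 ± 58.8 in Het vehicle males, and 492 ± 33.8 in Het fluoxetine females and 510 ± 44.4 in Het vehicle females (SD, n = 5 each), and it was not called either. Of the 3 standard counterparts, Psmb5 and Psmb7 rose in both sexes of Het pups and Psmb6 was not called: Psmb6 averaged 1674 ± 94.2 in Het fluoxetine males and 1636 ± 201 in Het vehicle males (SD, n = 5 each). Psmb9 shares 212 bases with Tap1 on the opposite strand.

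**Figure D5:**
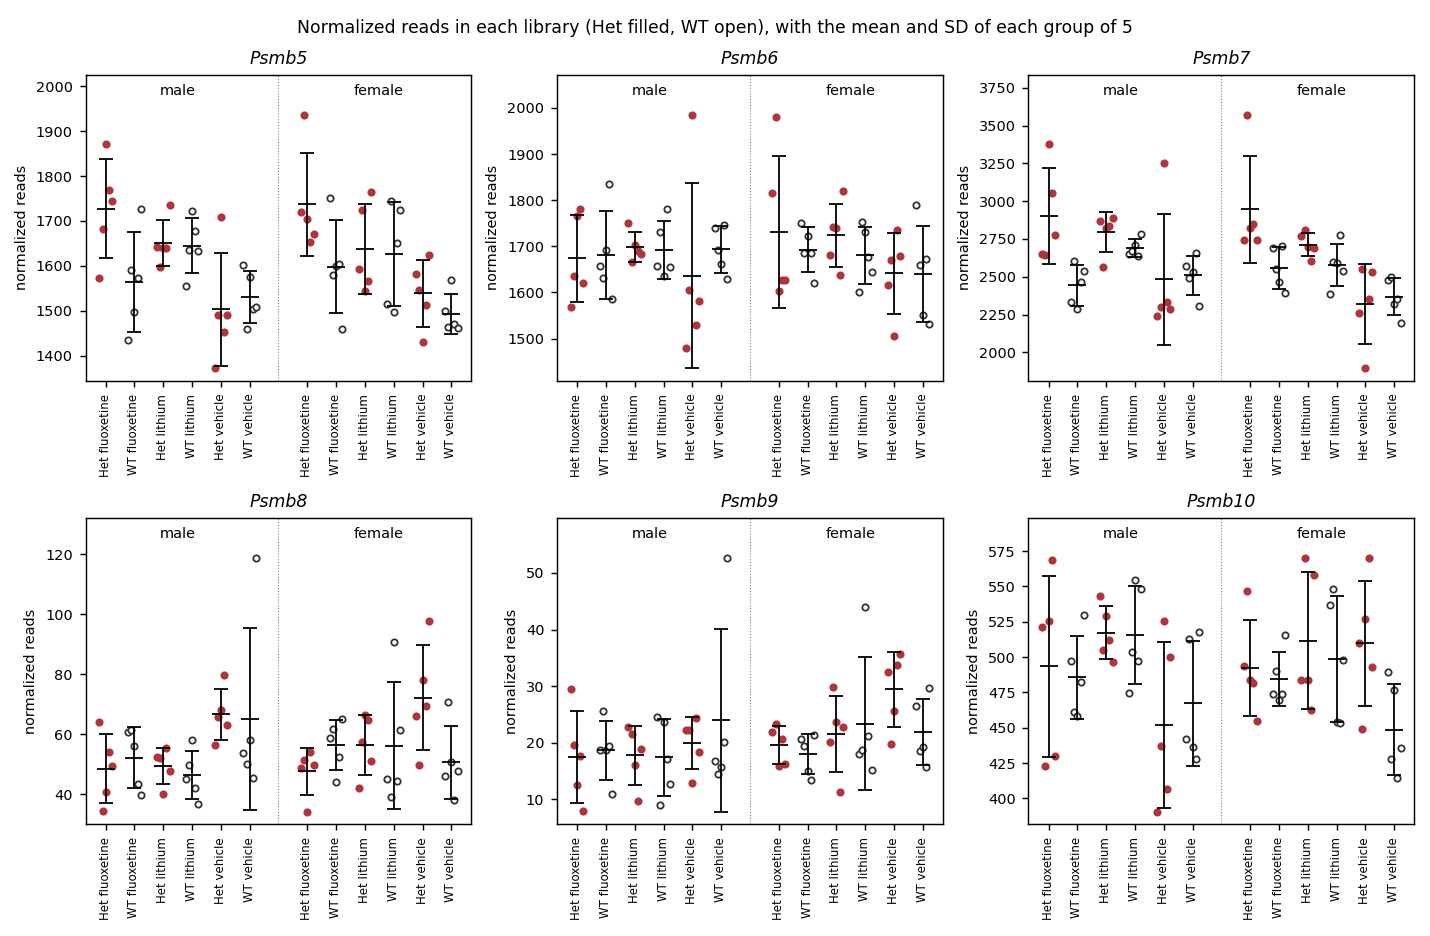
Normalized reads of the standard catalytic genes Psmb5, Psmb6 and Psmb7 and of their inducible counterparts Psmb8, Psmb9 and Psmb10 in each library of the 12 groups (Het filled, WT open), with bars for the mean and SD of 5. Psmb7 lies higher in Het fluoxetine than in Het vehicle pups and Psmb8 lower, with the ranges overlapping in males for Psmb7 and in both sexes for Psmb8.

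Among the activators, Psme3, which forms a ring that opens the core without ATP, measured 3012, 3162, 3170, 3121 and 2903 normalized reads in Het fluoxetine males and 2549, 2720, 2749, 2611 and 2981 in Het vehicle males. The 5 fluoxetine males overlapped the vehicle males only through vehicle male 5, at 2981 (0.18 ± 0.04, SE; limma, adjusted p = 0.00255). In Het females Psme3 averaged 2942 ± 177 in fluoxetine pups and 2849 ± 121 in vehicle pups (SD, n = 5 each) and was not called. Psme1 and Psme2, the interferon-inducible activator subunits, and Psme4, an activator known for histone degradation, were not called in any of the 14 comparisons. Psme4 averaged 2225 ± 432 in Het fluoxetine males and 2070 ± 191 in Het vehicle males (SD, n = 5 each).

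Psme1 averaged 753 ± 58.6 normalized reads in Het fluoxetine males and 701 ± 97.2 in Het vehicle males, and 789 ± 114 in Het fluoxetine females and 700 ± 23.9 in Het vehicle females (SD, n = 5 each). Psme2 averaged 266 ± 23.1 in Het fluoxetine males and 295 ± 32.1 in Het vehicle males, and 298 ± 29.6 in Het fluoxetine females and 285 ± 40.5 in Het vehicle females (SD, n = 5 each). Both differences in Psme2 were smaller than the larger of the 2 SDs.

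The core assembly chaperones Psmg1 to Psmg4 were not called in any of the 14 comparisons. Psmg2 averaged 341 ± 25.6 normalized reads in Het fluoxetine females and 282 ± 41.1 in Het vehicle females (SD, n = 5 each; 0.28, limma, adjusted p = 0.0618). Psmg3 averaged 216 ± 21.2 in WT fluoxetine females and 178 ± 12.1 in WT vehicle females (SD, n = 5 each; 0.27, limma, adjusted p = 0.0863). Psmg1 averaged 200 ± 8.60 in Het fluoxetine males and 194 ± 17.8 in Het vehicle males, and Psmg4 averaged 80.2 ± 7.49 in Het fluoxetine males and 78.9 ± 9.68 in Het vehicle males (SD, n = 5 each). The rare core genes Psma8 and Psmb11 stayed at group means between 6.38 and 10.7 and between 1.10 and 9.30 normalized reads, and neither was called.

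In all, 22 of the 48 members were called in at least 1 of the 14 comparisons and 26 in none. The share of all genes called in at least 1 of the 14 is not given here. Under fluoxetine alone, 22.7% of all genes were called in Het males and 15.1% in Het females, in either direction. The members called in none of the 14 included the alpha ring genes Psma3, Psma4, Psma5 and Psma7 and the beta ring genes Psmb3 and Psmb6. They also included the ATPase genes Psmc3 and Psmc4, and Psmd3, Psmd4, Psmd7, Psmd8, Psmd9, Psmd10 and Psmd11 of the cap. Some of these were called in Het pups with the sexes averaged, such as Psmb3 and Psmc4 under lithium and Psma3 under fluoxetine. Of the standard subunits, 31 of 31 in Het males and 30 of 31 in Het females had estimates above 0 under fluoxetine. Over all genes the median log2 fold changes were -0.0005 and 0.009 in that order. The subunits were measured in the same libraries, so their estimates are not independent.

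Other genes of the proteasome pathway were called mostly under fluoxetine in Het pups. Those contrasts also held the most calls over all genes, 22.7% in males and 15.1% in females in either direction. From a list of 40 such genes (ubiquitin enzymes, shuttle factors, deubiquitinases, the p97 complex and transcription factors), 39 were tested. Under fluoxetine 13 rose and 2 fell in Het males (median 0.07), 7 rose and 0 fell in Het females (median 0.06), while 0 rose and 1 fell in either sex of WT pups. Under lithium 1 rose, Adrm1 in Het males, and 0 were called between Het and WT in either sex. In Het males 12% of all genes and 19.2% of genes averaging at least 500 normalized reads were called higher. The same shares in Het females were 7.08% and 11.3%. Both 13 of 39 in males and 7 of 39 in females lie over these shares.

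The called genes of that list with the smallest adjusted p were mostly higher. In Het males under fluoxetine these were Ufd1, a p97 cofactor (0.35 ± 0.07, SE; limma, adjusted p = 0.000399), Ube3c, a ligase that works at the proteasome (0.17 ± 0.04, 0.000673), Sqstm1, an autophagy receptor for ubiquitin (0.32 ± 0.07, 0.000932), and Usp14, a deubiquitinase on the cap (0.20 ± 0.05, 0.00322). Uba6, an activating enzyme for ubiquitin and FAT10, was lower (-0.28 ± 0.07, 0.00501). In Het females Txnl1, a redox protein bound to the cap, rose by 0.18 ± 0.04 (SE; limma, adjusted p = 0.00267). Ddi2, the protease that activates Nrf1, was lower under fluoxetine in WT females (-0.23, limma, adjusted p = 0.0186), WT males (-0.22, 0.0373) and Het males (-0.17, 0.0325).

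A list of 17 interferon and antigen presentation genes, many of which are known to be induced together with Psmb8 and Psmb9, had medians of -0.18 in Het males and -0.26 in Het females under fluoxetine. In Het males Irf9, an interferon signalling factor, fell by 0.60 on the log2 scale (limma, adjusted p = 0.000648). In Het females Irf9 (-0.44, limma, adjusted p = 0.0136), the GTPase gene Gbp2 (-0.86, 0.0314) and the peptide transporter gene Tap2 (-0.45, 0.0464) fell, and no other gene of the list was called in these contrasts. Of all genes tested 10.7% were called lower in Het males and 8.04% in Het females, so 1 of 17 lies below that share and 3 of 17 above it.

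Markers of other cell types and of neighbouring tissue differed in the same Het contrasts. Under fluoxetine the olfactory bulb list had a median log2 fold change of -1.17 in Het males (0 of 8 called) and 0.42 in Het females (1 of 8 higher), and its scores ran between -2.32 and 1.91 in Het fluoxetine males and between -1.40 and 2.90 in Het vehicle males. In females the scores ran between -0.70 and 2.20 in Het fluoxetine pups and between -1.30 and 1.83 in Het vehicle pups. The oligodendrocyte list had a median of -0.15 in Het males (0 of 8 called) and 1.15 in Het females (7 of 8 higher), with scores between 0.03 and 0.88 in Het fluoxetine females and between -1.71 and 0.53 in Het vehicle females.

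The striatum list had a median of 0.35 in Het males (2 of 6 higher) and 0.36 in Het females (0 of 6 called). In Het males and Het females in that order, 1 and 4 of 6 leptomeningeal genes fell (medians -0.35 and -0.55), 2 and 1 of 7 microglial genes, 2 and 2 of 6 endothelial genes and 2 and 2 of 5 mural genes. Of 8 cortical excitatory neuron genes, 0 were called in Het males, and 1 rose and 3 fell in Het females (median -0.27). Of all genes 12% were called higher and 10.7% lower in Het males, and 7.08% and 8.04% in Het females. In Het against WT fluoxetine males the olfactory bulb median was 0.84, with 0 of 8 called, the leptomeningeal median -0.39 (0 of 6), the mural median -0.18 (0 of 5) and the microglial median -0.23 (1 of 7 lower). Of all genes 0.646% were called lower there. Median scores under fluoxetine and vehicle were -0.10 and 0.11 for astrocytes and 0.19 and -0.77 for erythrocytes in Het males. In Het females they were -0.07 and 0.08, and -0.22 and -0.56. For interneurons and choroid plexus they were 0.04 and -0.08, and -0.11 and -0.38, in Het males. In Het females these were 0.08 and -0.03, and -0.61 and 0.56. The least abundant marker tested, Folr1 of the choroid plexus, averaged 10.5 normalized reads. The part of these differences in the proteasome results was not tested beyond the fit without 16 libraries. In bulk tissue, fewer cells of a type and less RNA per cell cannot be told apart.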

How the data were processed

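Prefrontal cortex RNA of 60 mice was sequenced. Per the submitters' processing notes, the tools included Salmon 0.11.2, R 3.6.0 and DESeq2 1.19.11, with the build GRCm38. The authors deposited 1 table of 18088 genes whose values are a signal, reads divided by a size factor (0.818 to 1.0723): 100% of values were whole multiples of 1 read within 0.001. How reads of overlapping genes were shared out is not given in the sources used here. Symbols came from the GENCODE annotation of GRCm38 (18077 of 18088 IDs matched).

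From these values, limma 3.58.1 (R 4.3.3, trend) was run on log2(value + 1) over the 17807 genes that reached 10 normalized reads in 5 or more libraries, in 1 fit of 12 groups (48 residual degrees of freedom), with Benjamini-Hochberg adjustment per comparison and calls at an adjusted p under 0.05. Fold changes on this scale understate those of low genes. The fit was tested on simulated data. No 2 libraries of a group agreed within sampling noise (chi-square per degree of freedom 4.122 to 69.97 over 120 pairs). Intervals are limma's 95% intervals. Levels between genes were compared per kilobase of the principal transcript. Counts at an unadjusted p under 0.05 are given for members only, without the share of all genes at that threshold.

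Alternatives were quantile normalization, equal totals, a pseudocount of 8, no filter, only the groups compared, the replicate number as a block, edgeR 4.0.16 (quasi-likelihood) on the recovered reads and leaving out each library in turn. The fit without libraries of high olfactory bulb score was chosen after seeing the data. The members and the lists of other genes were chosen with earlier results of these data known. Values are given for every member in counts and, singly, for up to 5 called members with the smallest adjusted p in each of 14 comparisons, those called in most comparisons, rare members, catalytic subunits, activators, the inhibitor and chaperones, and for up to 6 other pathway genes by adjusted p; Psmd2, Psmb3, Psmb4, Psmc1, Psmc2, Psmc4, Psmc5, Psmd5, Psma2, Psmb2, Adrm1, Ddi2 and the interferon genes were named after their values were seen. Figures were drawn with matplotlib 3.10.9.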

Additional observations from a re-analysis of the deposited data

Results flagged for a closer look

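In 324 sets of 5 libraries (25 named members and the summed standard subunits of each particle, in 12 groups), 28 libraries stood far from the rest of their group by Dixon's test, which flags about 1 set in 20 by chance (16.2 here). Many of these were in 2 libraries. Het vehicle male 3 stood high in normalized reads of Psmb6 (1984.6, next 1605.3), Psmb7 (3252.6), Psmc6 (2545.8), Psmd14 (2404), Psme1 (871.23), the summed core subunits (31047, next 25596) and the summed regulatory subunits (47853, next 42116). Het fluoxetine female 2 stood high in Psmb1 (3366.8), Psmb5 (1936), Psmb7 (3569.1), Psmg1 (228.45), the summed core subunits (32543, next 27755) and the summed regulatory subunits (48973, next 44820).

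Among standard subunits in other libraries, Psmb7 (2564.1) and Psmd13 (1757.5) were low in Het lithium male 2, and Psmd6 (1633) was high in WT fluoxetine female 4. For activators, Psme2 (355.64) and Psme3 (3063.5) were high in Het vehicle female 5, Psme1 (770.65) in WT vehicle male 5 and Psme4 (2214.9) in WT fluoxetine female 4, and the chaperone gene Psmg4 was high in WT fluoxetine male 4 (82.091).

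Of the inducible subunits, Psmb8 was low in Het fluoxetine female 3 (34.231) and high in WT vehicle male 5 (118.56), where Psmb9 was high too (52.57, next 20.2), and Psmb9 was also high in WT lithium female 3 (43.942). Of the rare genes, Psma8 was high in WT lithium male 3 (16.187) and low in WT vehicle female 1 (6.9224), and Psmb11 was high in Het lithium female 1 (5.0285).

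The interaction test (limma, difference of log2 fold changes under fluoxetine, Het minus WT) called Psmd1 in males (0.26). With the sexes averaged it called Psmb1 (0.32), Psma6 (0.30), Psmd1 (0.21), Psmd6 (0.21) and Psmc6 (0.20). In females 0 members and 0 of all genes were called. Leaving out 1 library gave 0 to 8 calls in males and 1 to 8 with the sexes averaged. Without the 16 libraries with high olfactory bulb scores no member was called in either test.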

How the results depend on the processing

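Of 31 counts of called members, 31 stayed within 1.5 times of the main count with edgeR (19, 13 and 5 members in Het males, Het females and Het against WT fluoxetine males), with no filter and with a pseudocount of 8. In 0 comparisons did all 5 same-number pairs of libraries correlate above 0.1, which is a strict rule. For lithium in Het males 4 pairs did, and 4 libraries correlated best with their own number. For lithium in WT males 0 pairs did, and 3 libraries correlated best with their own number. Whether samples were paired by replicate number is therefore not settled. With the replicate block, all 31 counts also stayed within 1.5 times (20 in Het males, 12 in Het females), and Psmb8 in Het females lost its call. Quantile normalization gave 8 in Het females, 3 in Het against WT fluoxetine males, 1 for WT fluoxetine and 2 for Het lithium with the sexes averaged. Equal totals gave 7 in Het males (regulatory median 0.090), 3 in Het against WT fluoxetine males, 2 for Het lithium averaged and 0 for the interaction in males, and moved the median of all genes by at most -0.06. With only the groups compared the counts were 0 in Het males, 3 in Het females, 0 in Het against WT fluoxetine males and 0 for the interaction in males; averaged over sexes they were 3 for WT fluoxetine, 2 and 5 for lithium in Het and WT pups, 5 for Het against WT fluoxetine and 1 for the interaction. This fit has fewer samples and takes its spread from the compared groups alone. The fit described next keeps only replicates 3 and 5 of the Het vehicle males. All counts in this section are of members, without the share of all genes in the same fit. Without the 16 libraries with high olfactory bulb scores (2 Het fluoxetine males, 3 Het fluoxetine females, 3 Het vehicle males and 2 Het vehicle females among them), the counts were 1 in Het males (medians 0.057 core, 0.074 regulatory), 3 for lithium in Het females, 0 for the interaction in males and, averaged over sexes, 13 for Het fluoxetine (core median 0.043), 0 for Het lithium, 2 for Het against WT fluoxetine and 0 for the interaction; the lithium medians in Het males were -0.071 core and -0.014 regulatory, those of Het against WT vehicle males 0.12 and 0.056, and Psma3 in Het fluoxetine averaged over sexes turned to -0.00061. Leaving out 1 library gave 13 to 29 members in Het males, 4 to 16 in Het females, 2 to 12 in Het against WT fluoxetine males, 0 to 9 for lithium in Het males, 0 to 1 for lithium in WT females, and, averaged over sexes, 24 to 33 for Het fluoxetine, 2 to 15 for Het lithium (15 without Het vehicle male 3), 0 to 2 for WT lithium and 7 to 18 for Het against WT fluoxetine; the interactions ran between 0 and 8 in males and between 1 and 8 averaged. Of 89 single calls, 83 held with edgeR, 60 with equal totals, 34 with only the groups compared and 26 without the 16 libraries; the cause of these differences was not tested.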
